A study of Caenorhabditis briggsae with 13 samples.

Results

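Gene expression in the 190-cell embryo of the nematode Caenorhabditis briggsae, a relative of C. elegans, was compared with that in its 28-cell embryo. Arrays were chosen by sample title, 3 titled 190-cell and 3 titled 28-cell, or 6 of the 13 arrays of a developmental time course. The 190-cell embryos were taken 160 min and the 28-cell embryos 55 min after the 4-cell stage. All were of strain AF16, the labels give no treatment, and each array held total RNA of 50 pooled whole embryos, which was amplified by repeated in vitro transcription, given a Cy3 label and hybridised to an oligonucleotide array made for this species. Replicates were biological ones, per the labels. Other stages used below were the 4-cell (2 arrays), 55-cell (3 arrays) and 95-cell embryo (2 arrays), at 0, 80 and 120 min.

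Early animal embryos run on mRNA that the mother stored in the egg. The embryo's own genome is then switched on in cleavage, called zygotic genome activation, and the maternal mRNA is cleared over the following divisions. In C. elegans the interval covered here takes in part of gastrulation, when cells move inside, and tissue-specific transcription. A difference between these 2 stages can thus hold late clearance of maternal mRNA, the end of short zygotic expression and the start of later zygotic expression. In whole embryos, fewer cells of a type and less RNA per cell cannot be told apart. Equal amounts of labelled RNA were hybridised, so values are relative to the rest of the RNA on the array.

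Genes were identified on the array by WBGene number. None of these numbers (0 matched) was found in the RefSeq gene table of C. briggsae used here, so that genes have no symbol below and no tissue marker could be used to check the stage labels. For 4 arrays used here, 190-cell B, 28-cell B, 95-cell A and 55-cell A, the title and the stage tag disagreed, since the tag gave the 4-cell stage. Correlations were taken across tested genes, which are not independent replicates and were kept for detection on 28-cell or 190-cell arrays by title. Genes seen at 4 cells but at neither of these stages were thus left out, and the part of this in r was not tested. 190-cell B had r = 0.978 and 0.948 with the other 190-cell arrays and at most 0.712 with any 28-cell array. Its r with the 4-cell arrays was 0.699 and 0.706. 28-cell B had r = 0.973 and 0.968 with the other 28-cell arrays, against 0.777 and 0.781 with the 4-cell arrays. 95-cell A had r = 0.970 with 95-cell B, 0.960 with 190-cell A, and 0.730 and 0.731 with the 4-cell arrays. 55-cell A had r = 0.977 and 0.966 with the other 55-cell arrays, and 0.739 and 0.745 with the 4-cell arrays. Without all 4 of these arrays, 2147 genes were called higher and 2668 lower at 190 than at 28 cells, by the test described below. The scanner file deposited for 28-cell C duplicated the file of 190-cell C, and the values of 28-cell C therefore came from the series table, with no detection flags, slide or scan date. Of the arrays with flags, 190-cell A and B and 28-cell A and B shared a first scan date and 190-cell C had a second.

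The 75th percentile of the spot intensity was 399, 334 and 547 on 190-cell A, B and C, and 392, 370 and 294 on 28-cell A, B and C. On the 190-cell arrays 56.5%, 54.1% and 67.9% of the probes passed the scanner's test for a signal well above background, as did 53.99% of those on 28-cell A and 51.6% on 28-cell B. 190-cell C was the most sensitive of them, with a lowest signal well above background of 4.52, against 10.3 and 10.6 on 190-cell A and B and 13.8 and 16.9 on 28-cell A and B. Precision is limited by having 3 arrays a stage. The median SD between replicates was 0.40 on the log2 scale at 190 cells and 0.38 at 28 cells.

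Close to every other tested gene differed between the stages, with somewhat fewer rises than falls. Of 13090 genes tested, 2920 were higher at 190 than at 28 cells and 3376 were lower (limma moderated test on the 6 arrays, Benjamini-Hochberg adjusted p under 0.05). These 6296 genes are 48.1% of those tested, 22.3% upwards and 25.8% downwards. Values are log2 intensity over the array's own 75th percentile, and a gene's level is the mean of its probes that were well above background at 1 or both stages. The median standard error of a log2 change was 0.37. The median gene changed by -0.18 in this scaling and by 0.11 when arrays were scaled on spike-in controls, without 28-cell C. The balance of rises and falls is thus relative to the scaling. The spike-in scaling called 1221 genes higher and 1053 lower, and centring on the median gene called 3339 higher and 3030 lower.

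**Figure D1:**
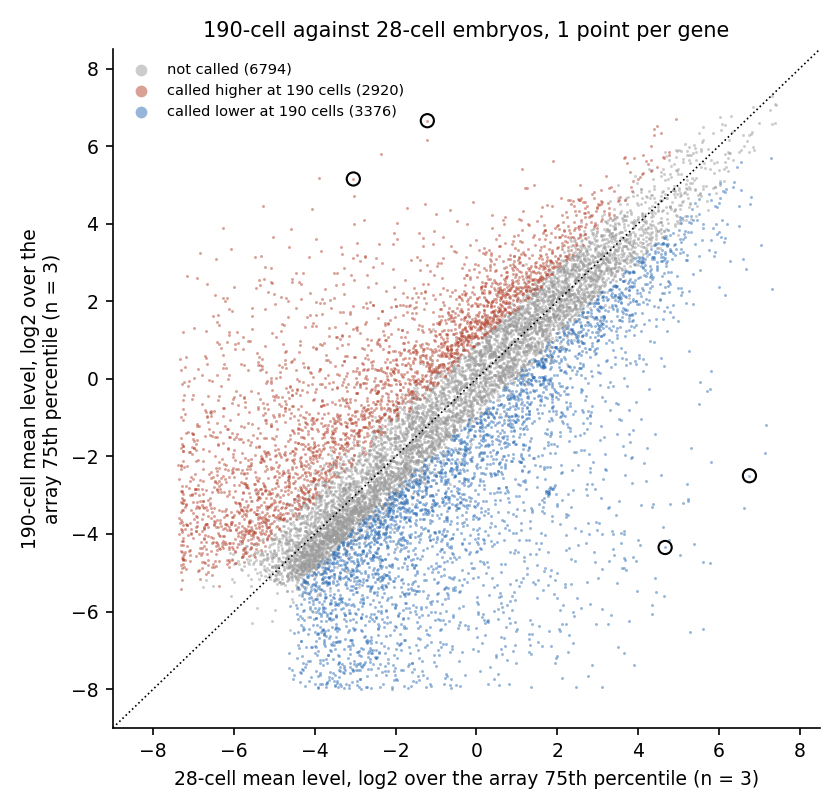
Mean level at 190 cells (vertical axis) against mean level at 28 cells (horizontal axis), both in log2 over the array's 75th percentile, 3 arrays each, 1 point per tested gene. 2920 genes called higher at 190 cells lie above the dotted line of equal levels, 3376 called lower lie below it, and circles mark the 4 genes described by number in the text.

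Replicates gave alike changes. Arrays with the same letter were subtracted from each other, which gives 3 sets of changes with no array in common. Across genes these sets correlated with r = 0.907 for A with B, 0.902 for A with C and 0.907 for B with C. The genes were kept by detection on arrays of these same 2 stages, 1314 through the 190-cell stage only and 906 through the 28-cell stage only. The part of this choice in r was not tested. 2917 of the 2920 higher genes and 3370 of the 3376 lower genes had their direction in all 3 sets. These genes were called on the same arrays, so their agreement in direction was largely set by the choice of genes. The share among all tested genes is not given. The median change of the higher genes was 2.04, 2.196 and 2.04 in A, B and C, and that of the lower genes -2.31, -2.06 and -2.30, although all 3 sets helped to choose these genes. For 6226 called genes (98.9%) the 3 arrays of 190 cells did not overlap with the 3 of 28 cells, against 57.4% of all tested genes. The test favours genes without overlap, so this share is a description and not a separate check. Within the first scan date, 2 arrays against 2, 2992 genes were higher and 3502 lower. The second date held no 28-cell array of known date.

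Many genes had several probes, which could be compared. Over the 8167 genes whose A and B probes were both kept, the 2 log2 changes had r = 0.912 across genes, and 90.4% of the genes had the same sign. The median absolute difference between the 2 probes was 0.23. Each probe alone was called in 3511 genes. 3488 of these had the same direction and 23 opposite directions, a number that ranged from 9 to 38 when 1 array was left out. In 504 genes the probes differed by more than 4-fold, and the mean of probes may then describe neither.

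More of the falls than of the rises were large. The median called fall was 4.25-fold and the median called rise 3.49-fold. Where the dimmer stage gave no signal well above background, the fold is a lower bound. It divides the brighter stage by the array's weakest signal that was well above background, or by the probe's own signal where that was higher, averaged over the dimmer stage's arrays. A gene well above background on only part of the dimmer stage's arrays or probes kept its fitted fold. That fold then rests partly on signals not well above background, and the counts that follow include such genes. Changes of 4-fold or more numbered 1258 among rises and 1776 among falls. From 16-fold upwards there were 339 rises against 581 falls, and from 64-fold upwards 86 against 212. At the low end, 386 of the called rises and 198 of the called falls were under 2-fold. Sizes of rises and falls were not tested against each other, and a constant added by scaling moves them in opposite ways. The arrays of the later stage also detected weaker signals, as given above. The bound of a fall could thus be larger than that of a rise from equal brightness. The part of this in the medians and counts of large changes was not tested.

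**Figure D2:**
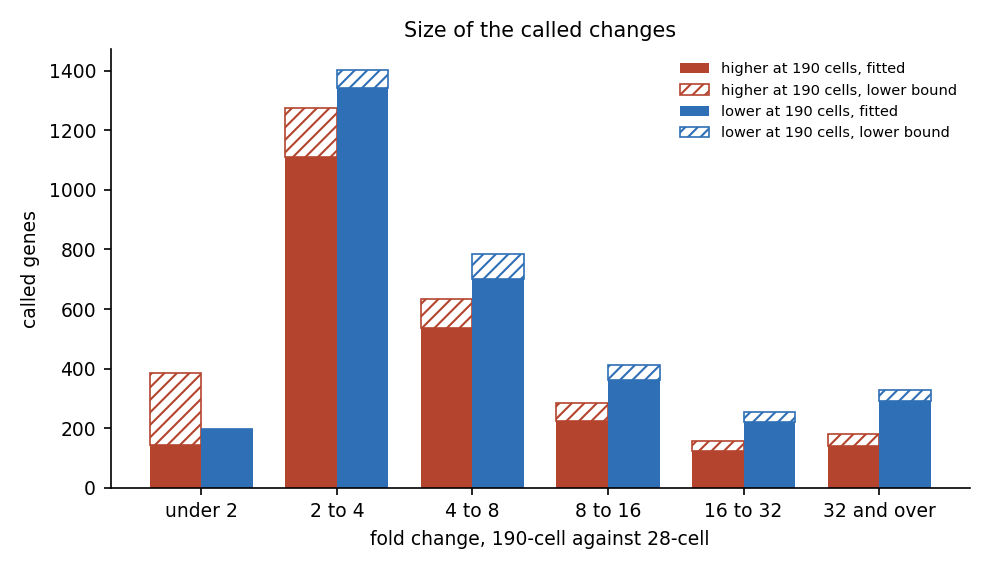
Number of called genes (vertical axis) by size of the fold change between 190-cell and 28-cell embryos (horizontal axis). Red bars are genes higher and blue bars genes lower at 190 cells, and hatched parts are genes whose fold is a lower bound for want of a signal above background at the dimmer stage. The classes from 16-fold upwards hold 339 higher and 581 lower genes.

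A stricter set had every kept probe well above background on all flagged arrays of both stages, so that each fold is measured at both ends. Of 9205 such genes, 3530 (38.3%) were called, 1503 higher and 2027 lower. The median rise among them was 3.06-fold and the median fall 3.30-fold. Among them 74 rises and 173 falls reached 16-fold. These genes are not free of selection, since a gene that was lost or gained altogether could not be among them.

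2 genes with large measured rises were WBGene00039827 and WBGene00024315, which had the largest log2 changes of 1203 genes that met the rule for naming in that direction. WBGene00039827 stood at 5.10, 5.59 and 4.77 on the 190-cell arrays A, B and C, against -2.81, -2.88 and -3.46 on the 28-cell arrays, in log2 over the 75th percentile. No array of either stage came near those of the other. The gene was higher at 190 cells by 8.2024 on the log2 scale, or 295-fold (SE 0.34, limma adjusted p = 4.08e-07). All of its 5 probes rose, by 7.11 to 8.70, and its A probe read 9050, 11343 and 9947 intensity units at 190 cells against 24.8, 25.295 and 17.2 at 28 cells.

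WBGene00039827 was about as dim at 4 cells, where its level was -2.69 ± 0.012 (SD, n = 2), as at 28 cells, where it was -3.05 ± 0.36 (n = 3). In the 55-cell embryo it stood at -0.075 ± 0.74 (n = 3), in the 95-cell embryo at 3.67 ± 0.15 (n = 2), and by 190 cells it had reached 5.15 ± 0.41 (n = 3). The increase from 55 to 95 cells, measured on arrays outside the comparison, was 3.75 on the log2 scale (SE 0.42, limma adjusted p = 0.000136). This was the largest of its 3 steps between stage means.

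For WBGene00024315 the levels were 6.59, 6.84 and 6.54 in the 190-cell embryo, against -1.23, -1.35 and -1.07 in the 28-cell embryo, again with no overlap. It was higher at 190 cells by 7.87 on the log2 scale, or 234-fold (SE 0.29, limma adjusted p = 2.42e-07), and its A and B probes rose by 8.28 and 7.47. The A probe read 30178, 28979 and 46798 units at 190 cells, against 94.9, 88.5 and 95.97 at 28 cells. Its course ran ahead of that of WBGene00039827: it was -1.94 ± 0.070 (SD, n = 2) at 4 cells and -1.22 ± 0.14 (n = 3) at 28 cells, then 3.55 ± 0.94 (n = 3) in the 55-cell, 6.22 ± 0.13 (n = 2) in the 95-cell and 6.66 ± 0.16 (n = 3) in the 190-cell embryo. From 55 to 95 cells it rose by 2.67 (SE 0.44, limma adjusted p = 0.00145). The spread at 55 cells, from 2.52 to 4.34 over 3 arrays, was the widest of any stage for this gene.

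2 genes with large measured falls were WBGene00040938 and WBGene00029281, with the most negative changes of 1409 genes that met the rule. WBGene00040938 was at -2.12, -2.03 and -3.35 in the 190-cell embryo, against 6.85, 6.997 and 6.43 in the 28-cell embryo. It fell by 9.26 on the log2 scale, 612-fold (SE 0.41, limma adjusted p = 4.52e-07), with changes of -9.35 and -9.16 in its A and B probes. The A probe read 64.5, 65.6 and 40.7 units at 190 cells, against 38450, 39336 and 18659 at 28 cells.

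At 4 cells WBGene00040938 was at 1.98 ± 0.0040 (SD, n = 2), well below its level of 6.76 ± 0.30 (n = 3) at 28 cells. It was at 1.48 ± 1.84 (n = 3) at 55 cells and -3.55 ± 0.50 (n = 2) at 95 cells. The SD at 55 cells came from 1 array, since 55-cell A and B stood at 2.69 and 2.38 and 55-cell C, of the second scan date, at -0.64. The fall from 55 to 95 cells was -5.03 (SE 0.81, limma adjusted p = 0.00131). The 190-cell mean, -2.50 ± 0.74 (n = 3), lay above the 95-cell mean.

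The 190-cell levels of WBGene00029281 were -4.57, -3.55 and -4.92, against 28-cell levels of 4.76, 4.87 and 4.38. It fell by 9.02 on the log2 scale, 520-fold (SE 0.40, limma adjusted p = 4.52e-07), and its A and B probes changed by -8.96 and -9.08. The A probe read 21.6, 28.99 and 23.3 units at 190 cells, against 11027, 11253 and 8599 at 28 cells. The B probe read 13.02, 27.9 and 13.9 units at 190 cells, where the lowest signals well above background were 10.3, 10.6 and 4.52. With normexp background correction and without 28-cell C the change was -7.23, against -9.17 without 28-cell C alone. The size of this fall thus varied with the background method. The course of WBGene00029281 was later than that of WBGene00040938. From -0.27 ± 0.35 (SD, n = 2) in the 4-cell embryo the level reached 4.67 ± 0.26 (n = 3) at 28 cells. It was 3.89 ± 0.62 (n = 3) in the 55-cell, -2.65 ± 0.52 (n = 2) in the 95-cell and -4.35 ± 0.71 (n = 3) in the 190-cell embryo. From 55 to 95 cells it fell by 6.54 (SE 0.46, limma adjusted p = 8.91e-06). All probes of the 4 genes were well above background on every array with flags at the 5 stages, and none was saturated.

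**Figure D3:**
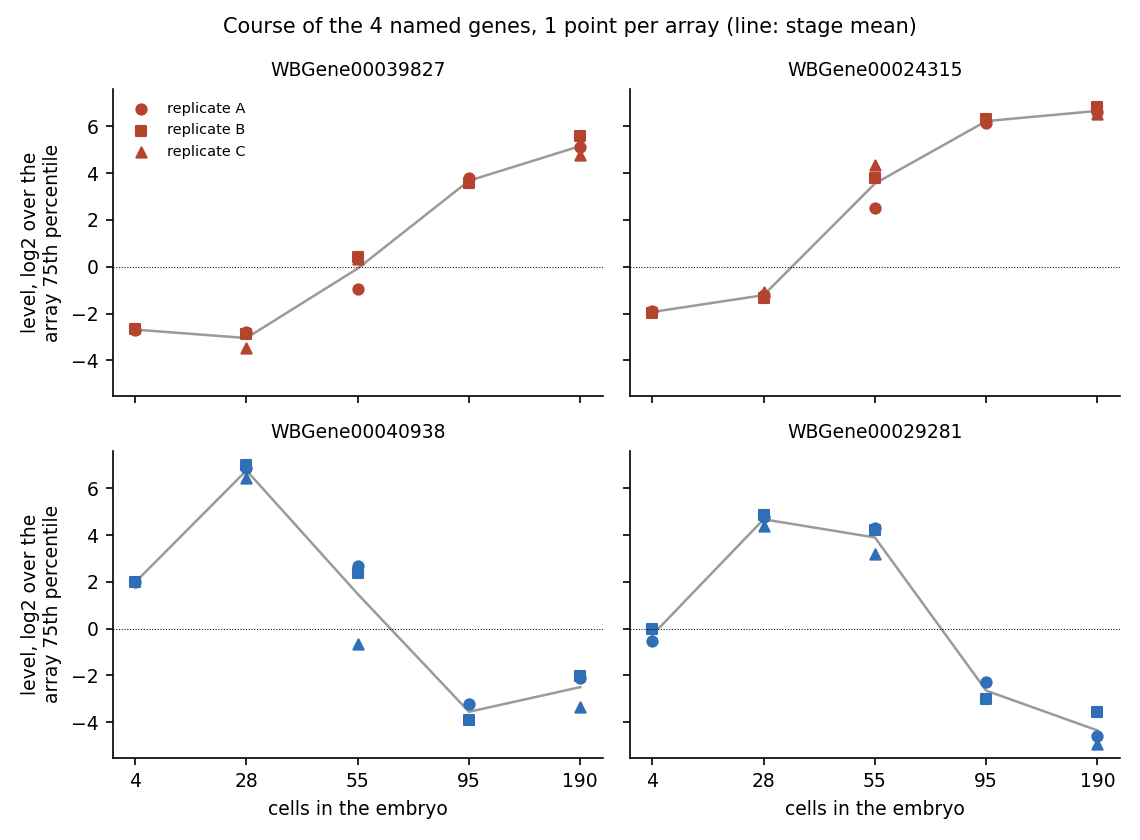
Level of the 4 genes (vertical axis, log2 over the array's 75th percentile) by number of cells in the embryo (horizontal axis), with a point for each array, a shape for each replicate letter and a line through stage means. The means of the rising genes increase at each stage after 28 cells, and the falling genes stand highest at 28 cells and lie below 0 on every array of 95 and 190 cells.

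643 genes appeared between the 2 stages. Each was called higher, lacked any kept probe well above background on 28-cell A and B, and had 1 or more such probes on all 190-cell arrays. They made up 22.02% of the called rises. The lower bound of the fold exceeded 1 in 602, where its median was at least 2.92-fold and its highest value at least 372-fold, and 75 had at least 16-fold. Such genes entered the test through the 190-cell arrays, and 785 tested genes had this detection pattern, called or not. Of all tested genes, 22.3% were called higher. The 190-cell arrays also detected weaker signals than the 28-cell arrays, as given above, and the part of this in the count was not tested. The count was 258 with normexp background correction and without 28-cell C, whose removal alone gave 641, and 368 with a common floor under all arrays. It was 670 within the first scan date.

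When these 643 genes were first detected depended on the array, since sensitivity differed within stages. The lowest signal well above background was 28.1 on 95-cell A and 4.44 on 95-cell B, and 13.8, 15.7 and 4.35 on 55-cell A, B and C. 95-cell B alone had 609 of the 643 genes (94.7%) above background. By the stricter rule of every array of a stage, 198 (30.8%) were above background on every array of 55, 95 and 190 cells, 162 (25.19%) on every array of 95 and 190 cells but not of 55 cells, and 259 (40.3%) on every array of 190 cells alone. A further 24 were above background at 55 and 190 cells but not on both 95-cell arrays. In only 27 genes was no kept probe above background on any array of 55 or 95 cells. Of the 259 genes, 226 were above background on 95-cell B, as were 23 of the 24, so that these patterns rest on 95-cell A and the 55-cell arrays and do not time the first appearance. Of the 643 genes, 589 (91.6%) were not above background on either 4-cell array, and 32 (4.98%) were above it on both.

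264 genes disappeared. They were called lower, were above background on 28-cell A and B, and lost all their well-above-background signals by 190 cells, on each of the 3 arrays. They were 7.82% of the called falls, with bounds whose median was at least 7.17-fold and whose highest was at least 783-fold, and 71 genes had at least 16-fold. Without 190-cell C, which detected the weakest signals, the count was 557, and it was 575 within the first scan date. Such genes entered the test through the 28-cell arrays. 267 tested genes had this detection pattern, called or not, so the call adds little to the pattern. 25.8% of all tested genes were called lower.

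Most of the 264 genes were not measured at the start of the series either. In 208 (78.8%) neither 4-cell array showed any kept probe above background, and 41 (15.5%) were above background on both. Among all 13090 tested genes, 25.4% were not above background at 4 cells and 69.4% were. The 208 genes were thus seen at 28 cells and at neither end of the series. 118 of the 264 genes (44.7%) were still above background on every 55-cell array and not on both 95-cell arrays, and 9 on every array of 55 and 95 cells. On 95-cell B alone, 97 of the 264 genes were above background, 63 of the 118 among them, so that for these 63 the loss by 95 cells rests on 95-cell A alone. The 4-cell arrays had only 40.5% and 39.7% of probes well above background, so a weak signal was more easily missed there.

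The 4-cell arrays, which took no part in the comparison, divided each direction into genes with and without a signal above background at 4 cells. Of the 3376 genes lower at 190 cells, 2207 (65.4%) were above background on both 4-cell arrays and 992 (29.4%) on neither. The median level of the 2207 was 0.97, 0.83, -0.45, -1.56 and -1.96 over the 5 stages from 4 to 190 cells. That of the 992 was -5.52, -2.41, -3.45, -5.17 and -5.36 over the same stages. That these genes stood low at both ends follows from how they were chosen. The remaining 177 genes were above background on part of the 4-cell data only. The 4-cell level of a gene not above background is no more than a limit.

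Of the 2920 genes higher at 190 cells, 1707 (58.5%) were above background on both 4-cell arrays and 1080 (36.99%) on neither, with 133 in between. The median level of the 1707 was -0.35, -0.91, 0.089, 0.87 and 1.15 over these stages. That of the 1080 was -5.59 at 4 cells and -5.58 at 28 cells, then -4.45, -3.31 and -2.38 at 55, 95 and 190 cells. Of the 6794 genes not called, 76.1% were above background on both 4-cell arrays and 18.5% on neither. The share of genes without a 4-cell signal is given for each group as a description and was not tested.

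**Figure D4:**
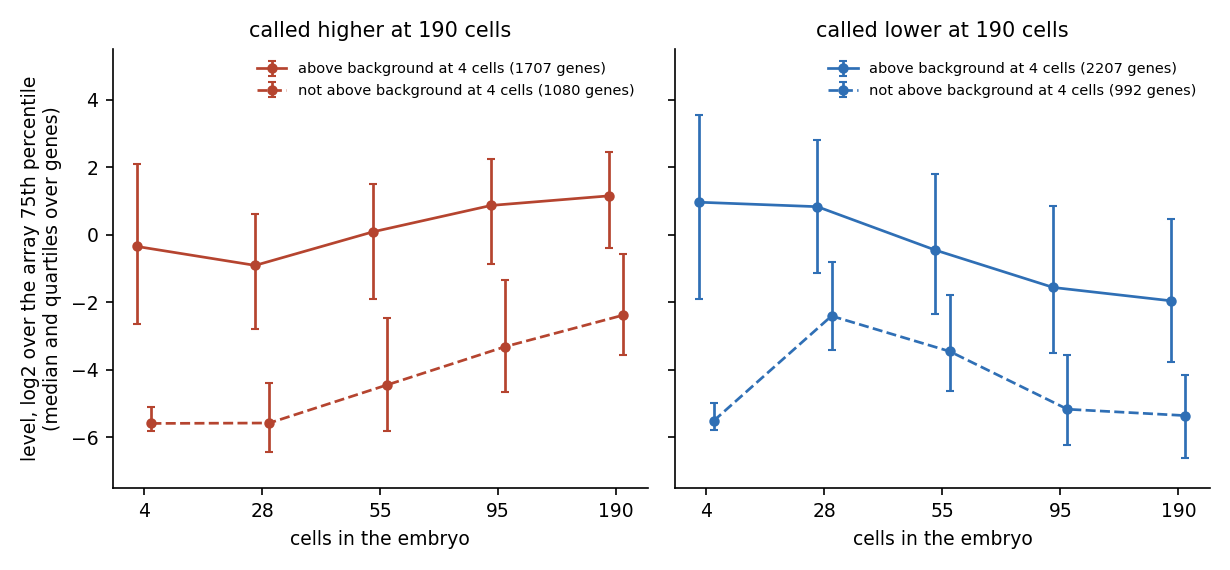
Median level and quartiles over genes (vertical axis, log2 over the array's 75th percentile) by number of cells in the embryo (horizontal axis), for genes called higher (left) and lower (right) at 190 than at 28 cells. Solid lines are genes above background on both 4-cell arrays and dashed lines genes above it on neither: the 992 dashed genes on the right have a median of -2.41 at 28 cells, above both ends by the choice of genes, and -3.45 at 55 cells.

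The levels at 55 and 95 cells placed most of the change before the 95-cell stage. For the 2920 higher genes the median log2 level over 28 cells was 0.80 at 55 cells, 1.54 at 95 cells and 2.07 at 190 cells, and the median gene had made 42.8% of its change at 55 cells and 81.0% at 95 cells. For the 3376 lower genes the medians were -0.95, -1.93 and -2.17, with 42.1% of the change made at 55 cells and 88.0% at 95 cells. The median of all tested genes changed by -0.11 from 28 to 55 cells, -0.18 from 55 to 95 cells and 0.092 from 95 to 190 cells. Its part in these courses, and in the largest steps and stage orders given below, was not tested. The intervals lasted from 55 to 80, 80 to 120 and 120 to 160 min after the 4-cell stage, so the last 2 were of equal length. The ends of these courses chose the genes, and the values are a description.

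The largest step between stage means, which is not a rate since the first interval was shorter, lay at different stages in different genes. Among higher genes the largest of the 3 steps between stage means was from 28 to 55 cells in 1378 (47.2%), from 55 to 95 cells in 901 (30.9%) and from 95 to 190 cells in 641 (21.95%). Among lower genes the numbers were 1470 (43.5%), 1544 (45.7%) and 362 (10.7%). The last step was the largest in 331 of the 1080 higher genes (30.6%) not above background at 4 cells, and in 265 of the 1707 (15.5%) that were above it. Among lower genes, the step from 55 to 95 cells was the largest in 549 of the 992 (55.3%) not above background at 4 cells, and in 904 of the 2207 (41.0%) that were. None of these differences was tested.

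A strictly ordered course was common but far from general. The 4 stage means were in rising order in 1509 of the higher genes (51.7%) and in falling order in 1921 of the lower genes (56.9%). Among changes of at least 4-fold the shares were 746 of 1258 (59.3%) and 1266 of 1776 (71.3%). A mean at 55 or 95 cells lay beyond the 190-cell mean in 731 higher genes (25.03%) and 1041 lower genes (30.8%), and beyond the 28-cell mean on the other side in 566 (19.4%) and 337 (9.98%). Means of 2 or 3 arrays that lie close together can change places within their spread.

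The comparison of 95-cell with 55-cell embryos shares no array with that of 190-cell with 28-cell embryos, and so gave the direction on separate arrays. It called 17.8% of the tested genes, 6.83% higher and 10.9% lower at 95 cells (limma on the 11 arrays of the later 4 stages). Of the 2920 genes higher at 190 cells, 833 (28.5%) were also called higher at 95 than at 55 cells and 22 (0.753%) lower. Of the 3376 lower genes, 1285 (38.1%) were also called lower and 10 (0.296%) higher. Without 95-cell A and 55-cell A, whose tags contradict their titles, the counts in the same direction were 296 and 580, with the 1 remaining 95-cell array assumed to vary like the other stages. Of the 6794 genes not called between 28 and 190 cells, 51 were called higher and 123 lower. The 2 fits draw part of their estimate of spread from the same arrays, so that a gene with little spread is more easily called in each.

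Without a threshold, 2605 of the higher genes (89.2%) had a higher mean at 95 than at 55 cells, against 41.2% of all tested genes, and 3158 of the lower genes (93.5%) had a lower one, against 58.8%. The median change from 55 to 95 cells was 0.74 for the higher genes, -0.99 for the lower genes and -0.18 for all tested genes. Within the first scan date (1 array of 95 cells, 2 of 55) the shares were 90.7% and 89.9%, and within the second (1 array each) 83.2% and 92.5%. Of all tested genes, 45.7% were higher and 54.3% lower at 95 cells within the first date, and 38.1% and 61.9% within the second.

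The groups set by detection moved in the same directions. 556 of the 643 genes that appeared (86.5%) were higher at 95 than at 55 cells, with a median change of 1.11, and 226 (35.1%) were called higher and 5 lower. 253 of the 264 that disappeared (95.8%) were lower, with a median of -1.69, and 120 (45.5%) were called lower and 0 higher. Of all tested genes 6.83% were called higher and 10.9% lower. Among the 992 lower genes not above background at 4 cells the median was -1.39 and 488 (49.2%) were called lower, and among the 2207 above background at 4 cells it was -0.84 and 705 (31.9%).

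**Figure D5:**
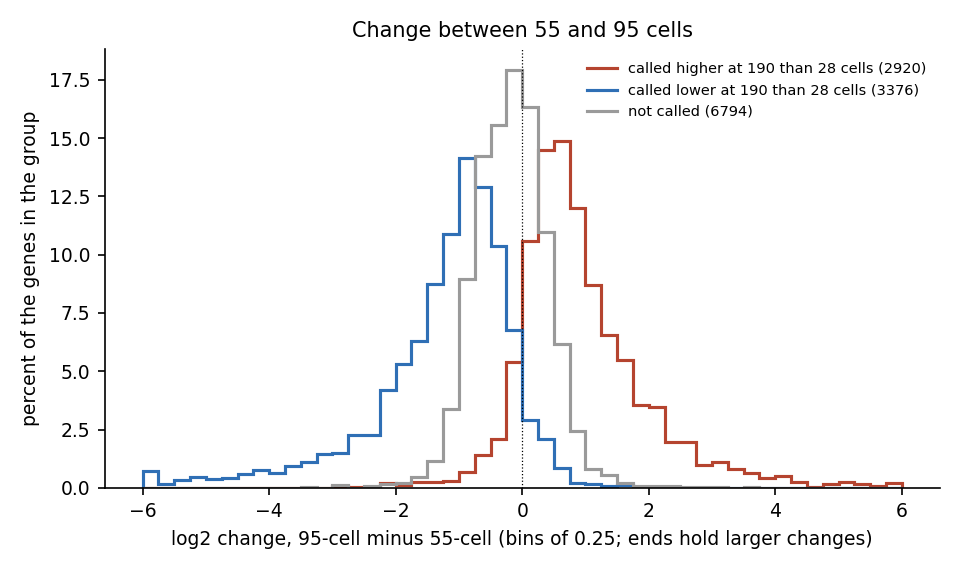
Share of genes (vertical axis, percent of each group) by log2 change from 55 to 95 cells (horizontal axis, 95-cell minus 55-cell), for genes called higher, called lower and not called between 28 and 190 cells. The medians of the called groups, 0.74 and -0.99, lie on either side of 0, although none of the arrays plotted was part of the calls.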

How the data were processed

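The authors deposited 1 intensity per probe and array, the processed signal of Agilent Feature Extraction (version 9.5.3.1, per the file headers), background-subtracted and with no scaling between arrays. It equalled the series table on 12 arrays (relative tolerance 1e-06), and series-table values were used throughout (0 unclaimed columns). The scanner's flags (above background, saturation, outlier) were used as deposited.

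Of 42034 gene probes, 207 with an outlier flag were left out. Intensity was scaled to each array's 75th percentile over all gene probes and taken to log2. A probe was kept if well above background on every flagged array of the 190-cell or of the 28-cell stage (23956 probes, 13090 genes, 4662 of them with 1 probe). 10870 genes were above background at both stages, 1314 only at 190 and 906 only at 28 cells. Tests used limma 3.58.1 in R 4.3.3, two-sided, on the 6 arrays, or on 11 arrays for 95-cell vs 55-cell. The fit was tested on simulated data.

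Genes were named where called, with non-overlapping stages, at least 2 kept probes all moving alike, all above background and unsaturated at both stages: the 2 largest changes each way. The 26 gene lists that were prepared could not be applied, since no identifier matched a symbol. The comparison and lists were chosen with earlier results of these data known. Alternatives covered the arrays in the fit, the replicate block, scaling, background, filters and probes. Normexp (offset 50) took median spot signals in place of the planned mean signals.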

Additional observations from a re-analysis of the deposited data

How the results depend on the processing

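Counts were recomputed under up to 16 alternatives and 2 chosen after seeing the data, and again leaving out 1 of the 6 arrays at a time. Directions and calls of the 4 named genes were the same wherever they were refitted, but their sizes varied. With normexp and without 28-cell C the log2 changes were 6.92 for WBGene00039827, 7.40 for WBGene00024315, -8.50 for WBGene00040938 and -7.23 for WBGene00029281. Without 28-cell C alone they were 7.998, 7.95, -9.42 and -9.17 in the same order. The brightest kept probe alone gave 7.11 for WBGene00039827. Leaving out 1 array gave 5011 to 6406 called genes, 2306 to 2930 higher and 2705 to 3666 lower, 582 to 779 genes that appeared, 263 to 557 that disappeared (557 without 190-cell C), 692 to 899 higher and 1068 to 1417 lower genes with the same call between 55 and 95 cells, and 2677 to 3344 genes called alike by both probes. The following moved by over 1.5 times. Spike-in scaling, without 28-cell C, gave 2274 called genes, 1221 higher and 1053 lower, 184 and 269 with the same call between 55 and 95 cells, 1172 called alike by both probes, and a median change over all genes of 0.11, opposite in sign to the -0.18 of 75th-percentile scaling. This median was -0.40 with no filter, and -0.28 to -0.087 with 1 array left out, the last without 190-cell C. It was -0.020 with centring and -0.042 with quantile normalization, methods that hold it near 0 by design. A test against 2-fold gave 3277 called genes, 1469 higher and 1808 lower, then 192, 366 and 1793. Only probes above background at both stages, which leaves fewer genes, gave 493, 834 and 2223. No filter on dim probes gave 428 and 657 between 55 and 95 cells. The first scan date alone gave 850 falling genes there and 575 that disappeared. Genes that appeared numbered 258 with normexp and without 28-cell C (641 without 28-cell C alone) and 368 with a common floor. The cause was not tested unless stated. Letters were not used to pair arrays in the main fit. Deviations of 190-cell and 28-cell arrays of the same letter had r = -0.066, 0.15 and 0.33 for A, B and C. The value for C was the highest of all pairs. Between different letters r ran from -0.35 (190-cell B with 28-cell C) to 0.27 (190-cell B with 28-cell A). With the replicate block 6814 genes were called, 3166 higher and 3648 lower, and the fit over all 13 arrays called 7129. Stage tags contradict the title on 4 arrays. Without 28-cell B and 190-cell B, 4815 genes were called. The 2 settings added after seeing the data dropped 55-cell A and 95-cell A, which left 296 higher and 580 lower genes with the same call between 55 and 95 cells, or all 4 arrays, which left 266 and 535, and 8 genes with opposite probe calls. Flags of 28-cell C were not used, so detection at 28 cells rests on 2 arrays, and signals near background have no order.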
